A study of Mus musculus with 6 samples.

Results

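The core genes of the circadian clock were followed between young and adult mice in satellite cells, which serve as the stem cells of muscle. The 10 genes are Clock, Arntl, Per1, Per2, Per3, Cry1, Cry2, Nr1d1, Nr1d2 and Dbp, and they were found by exact match of the gene name among the non-control probes of the array. They were represented by 14 of 55681 probes, with 1 probe for 6 genes and 2 probes for 4 genes. The cells came from skeletal muscle of male C57BL/6 mice. They had been sorted for integrin alpha7 and CD34, and cells with CD31, CD45, CD11b or Sca1 had been removed. The young group held 3 samples, of 3, 2 and 3 months for replicates 1, 2 and 3, and the adult group held 3 samples, all of 6 months. The labels call the samples biological replicates without saying how many mice stood behind each. The sources used here give no time of day for the collection of the muscles. The question put to these genes was whether their levels differ between the ages, and whether the activating and the repressing genes of the clock move in opposite directions.

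The clock is a feedback loop of transcription that runs in nearly every cell of the body, muscle and its stem cells included. CLOCK and BMAL1, the product of Arntl, bind E-boxes as a pair and switch on the Per, Cry and Nr1d genes. PER and CRY proteins return to the nucleus and block the pair, while REV-ERB proteins, the products of Nr1d1 and Nr1d2, repress Arntl through sites that they share with the ROR activators. In a cycling tissue the mRNA of Arntl therefore peaks at another time of day than that of the Per and Nr1d genes. Dbp is a direct target of the pair and binds D-boxes in other genes, those of the Per family among them.

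Each sample was hybridised to 1 array read in a single colour, and levels are given as the log2 signal minus the 75th percentile of that array. Levels are compared between arrays for the same probe only. Between 41528 and 49957 probes per array were well above background, more on each adult array than on any young one. Of the 14 clock probes, 13 were well above background on all 6 arrays, and these stand for 9 of the 10 genes. The probe of Cry1 was not well above background on any array. All 8 marker genes of satellite cells, Pax7 and Myf5 among them, were well above background on every array. So were 4 of 4 mural, 3 of 3 adipocyte, 3 of 4 endothelial, 3 of 4 myofibre and 3 of 5 leukocyte markers. Of 3 tested fibro-adipogenic markers 2 were. Detection alone therefore does not set satellite cells apart from these types. The satellite cell list includes Itga7 and Cd34, whose products were used to sort the cells. Pecam1, Ptprc, Itgam and Ly6a in the other lists encode the proteins used to remove cells.

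Of the 9 genes tested, 1 was higher in adult cells, 0 were lower and 8 did not pass (limma, Benjamini-Hochberg adjustment over all genes, threshold 0.05). In the same fit 28.5% of 32083 genes passed, 20.1% higher and 8.45% lower in adult. Before adjustment, 3 of the 9 clock genes had p under 0.05 (limma), as had 15443 of the 32083 genes. The 3 were Per2 with a positive and Clock and Arntl with negative differences. Groups that did not overlap were found for 4 of the 9 clock genes, against 55.6% of all genes. The median difference of the 9 genes was -0.18, beside 0.31 for all genes.

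**Figure D1:**
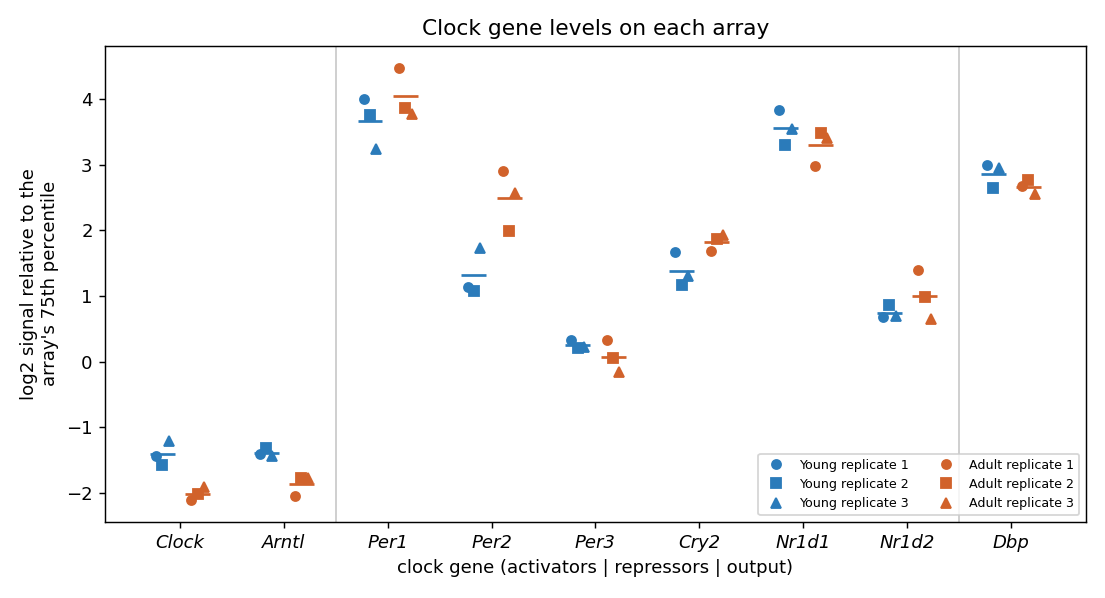
Level of the 9 detected clock genes on each array (y axis, log2 signal relative to the array's 75th percentile) by gene (x axis), for the brighter probe where a gene has 2. Symbols mark replicates, blue young and orange adult, and horizontal lines are group means of 3 arrays. The adult arrays lay below every young array for Clock and Arntl and above every young array for Per2 and Cry2, and the groups overlapped for the other 5 genes.

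Both activating genes had lower levels on every adult array than on any young one, though neither passed the threshold. Clock, whose product is the DNA-binding partner of BMAL1, is reported by a probe on chromosome 5 from 76641377 to 76641436 (minus strand, mm9). Its levels were -1.43, -1.57 and -1.21 in young replicates 1, 2 and 3, and -2.10, -2.02 and -1.91 in adult replicates 1, 2 and 3. The groups did not overlap, and each adult array lay below the lowest young one. The mean was -2.01 ± 0.10 in adult against -1.40 ± 0.18 in young (SD, n = 3 each). This is a 1.52-fold lower level, with a log2 difference of -0.61 ± 0.19 SE that missed the threshold (limma adjusted p = 0.0547). Within the 2 rows of the slide, which the sample descriptions appear to give, it was -0.60 and -0.76.

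Arntl, which encodes BMAL1, the partner of CLOCK in the activating pair, is reported by a probe on chromosome 7 from 120457261 to 120457320 (plus strand, mm9). Young replicates 1, 2 and 3 stood at -1.40, -1.31 and -1.43, and adult replicates 1, 2 and 3 at -2.05, -1.76 and -1.76. The young arrays lay close together, and adult replicate 1 was the lowest of all 6. Arntl was 1.39-fold lower in adult, at -1.86 ± 0.17 against -1.38 ± 0.06 (SD, n = 3 each), and this difference of -0.48 ± 0.18 SE did not pass (limma adjusted p = 0.0855). Within the slide rows it was -0.69 and -0.33. Of all genes, 21.6% had every adult array below every young one, so such a split was common.

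Because the loop is read through short DNA sites, the stretch around the start of 3 members is shown, each holding a different clock motif. The sequences are those of RefSeq on GRCm38.p6, from 250 bases before to 50 bases after the start of a transcript, 5′ to 3′ on the gene's strand. Capitals mark the motif: the REV-ERB and ROR core TAGGTCA in Arntl at chr7:113207261-113207560 (plus strand), the E-box CACGTG in Per1 at chr11:69098699-69098998 (plus strand), and the D-box TTATGTAA, found 2 times, in Per3 at chr4:151044616-151044915 (minus strand).
Arntl: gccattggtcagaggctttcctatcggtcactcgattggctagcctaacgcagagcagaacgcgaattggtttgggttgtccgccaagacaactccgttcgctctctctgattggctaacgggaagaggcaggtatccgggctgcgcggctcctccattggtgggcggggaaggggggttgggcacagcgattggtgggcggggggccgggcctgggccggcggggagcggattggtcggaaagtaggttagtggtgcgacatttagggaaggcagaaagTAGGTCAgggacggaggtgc
Per1: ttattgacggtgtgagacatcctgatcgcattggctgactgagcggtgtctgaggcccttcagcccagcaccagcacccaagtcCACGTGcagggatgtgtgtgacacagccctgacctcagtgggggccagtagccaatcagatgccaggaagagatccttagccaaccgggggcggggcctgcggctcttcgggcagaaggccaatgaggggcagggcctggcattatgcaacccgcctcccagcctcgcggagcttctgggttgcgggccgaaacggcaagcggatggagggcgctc
Per3: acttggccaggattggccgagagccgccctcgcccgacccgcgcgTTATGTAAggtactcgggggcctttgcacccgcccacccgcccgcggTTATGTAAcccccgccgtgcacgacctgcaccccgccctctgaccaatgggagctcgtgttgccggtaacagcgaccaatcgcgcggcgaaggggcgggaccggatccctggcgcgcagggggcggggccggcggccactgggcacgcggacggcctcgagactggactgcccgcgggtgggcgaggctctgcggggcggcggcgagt

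The motif starts 31 bases after the start site in Arntl and 166 bases before it in Per1, and the D-boxes of Per3 start 205 and 158 bases before it. In all, 13 such windows of 9 members were searched on both strands for CACGTG, for TTATGTAA or TTACGTAA, and for TAGGTCA or TGGGTCA, and Per2 is not in the table. The remaining match was CACGTG in Cry1, 60 bases before its start. Of 32851 promoter windows of the same length, 7.15% held the E-box, 1.06% a D-box and 6.45% a REV-ERB and ROR core. A match describes these letters only, and the arrays do not report on binding there.

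Of the 3 Per genes 1 passed the test, and their differences did not share a sign. Per2, a PAS-domain protein that carries the repressor complex, was the 1 member past the threshold. Its probe lies on chromosome 1 from 93313046 to 93313105 (minus strand, mm9). Levels were 1.14, 1.07 and 1.73 in young replicates 1, 2 and 3, and 2.91, 1.99 and 2.58 in adult replicates 1, 2 and 3. Every adult array exceeded every young one, which held for 34.0% of all genes, but the gap between adult replicate 2 and young replicate 3 was narrow beside the spread within either group. Per2 was 2.26-fold higher in adult, at 2.49 ± 0.46 against 1.32 ± 0.36 (SD, n = 3 each), with a log2 difference of 1.18 ± 0.32 SE (limma adjusted p = 0.0420). With any 1 array left out the adjusted p lay between 0.0588 and 0.113, so that the call was lost in 6 of 6 such fits, while the difference stayed between 0.97 and 1.43. Without young replicate 2, the only sample of 2 months, it was 1.06 (limma adjusted p = 0.0879). Within slide row 1 (young replicates 1 and 2, adult replicate 1) the difference was 1.80 and within row 2 it was 0.56, and with the row as a block it did not pass (1.18, limma adjusted p = 0.0752).

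Per1, the paralogue that also responds quickly to hormones and cAMP, is reported by probes on chromosome 11 at 68919895 to 68919954 and 68923364 to 68923423 (plus strand, mm9). By the brighter of these, which the array design assigns to the clone sequence AK081813, levels were 4.0, 3.75 and 3.24 in young and 4.48, 3.86 and 3.78 in adult replicates 1, 2 and 3. Adult replicate 1 was the highest and young replicate 3 the lowest, and the groups overlapped. The difference was 0.38 ± 0.30 SE (limma adjusted p = 0.343), and the dimmer probe, on the RefSeq transcript NM_011065, gave 0.41 ± 0.36 SE.

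Per3, the member least needed for rhythm in mice, was steady among the young arrays, at 0.32, 0.21 and 0.22, and stood at 0.33, 0.06 and -0.15 in adult replicates 1, 2 and 3. Its probe lies on chromosome 4 from 150379256 to 150379315 (minus strand, mm9). The sign was opposite to that of Per1 and Per2, at -0.18 ± 0.20 SE, and the difference did not pass (limma adjusted p = 0.489).

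The cryptochromes, flavoproteins that bind the CLOCK and BMAL1 pair directly and silence it, could be followed through Cry2 alone. The Cry1 probe, on chromosome 10 from 84594731 to 84594790 (minus strand, mm9), gave processed signals of 4.04, 3.52 and 3.72 on the young arrays and 6.04, 3.54 and 3.15 on the adult ones. On the same arrays the dimmest probes well above background had signals between 12 and 20.1. Cry1 therefore has only an upper bound in both groups, and no fold is given.

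Cry2 was measured by probes for different transcripts, on chromosome 2 from 92251417 to 92251476 and from 92243807 to 92243866 (minus strand, mm9). By the brighter probe, on NM_001113333, young replicates 1, 2 and 3 stood at 1.67, 1.17 and 1.31 and adult replicates 1, 2 and 3 at 1.68, 1.87 and 1.92. All adult arrays were above all young ones, by a hair in the case of young replicate 1. The difference of 0.44 ± 0.21 SE, or 1.36-fold, did not pass (limma adjusted p = 0.142). The dimmer probe, on NM_009963, gave 0.49 ± 0.26 SE with overlapping groups.

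The nuclear receptors of the second loop, which bind haem and repress Arntl, gave differences of opposite sign, except with median scaling, where that of Nr1d2 was -0.27. The Nr1d1 probe is the only one of the 14 whose mapped span, 503 bases on chromosome 11 from 98630526 to 98631028 (minus strand, mm9), is longer than its 60 bases, so it reads across a gap in the genome and not along 1 unbroken stretch.
Nr1d1 probe: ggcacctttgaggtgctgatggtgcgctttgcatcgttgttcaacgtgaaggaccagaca

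Nr1d1 levels were 3.83, 3.30 and 3.54 in young and 2.98, 3.49 and 3.41 in adult replicates 1, 2 and 3. Adult replicate 1 was the lowest array, and the other adult arrays lay within the young range. The difference was -0.26 ± 0.24 SE (limma adjusted p = 0.404). Nr1d2 levels by the brighter probe, on chromosome 14 from 19036568 to 19036627 (minus strand, mm9), were 0.68, 0.86 and 0.69 in young and 1.39, 0.98 and 0.65 in adult replicates 1, 2 and 3. The adult arrays held both the highest and the lowest value, and the difference was 0.27 ± 0.24 SE (limma adjusted p = 0.398). The dimmer Nr1d2 probe gave 0.18 ± 0.27 SE.

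Dbp, the output gene of the list, encodes a PAR bZIP transcription factor and is among the strongest cycling mRNAs in many tissues. Levels were 2.99, 2.65 and 2.95 in young and 2.67, 2.76 and 2.55 in adult replicates 1, 2 and 3, by the probe on chromosome 7 from 52965461 to 52965520 (plus strand, mm9). The groups overlapped, with a difference of -0.20 ± 0.19 SE (limma adjusted p = 0.412). Its dimmer probe, from 52965322 to 52965381, stood at 1.61, 1.32 and 1.74 in young and at 1.28, 1.31 and 0.74 in adult replicates 1, 2 and 3. By that probe all adult arrays were below all young ones, and the difference of -0.45 ± 0.25 SE did not pass (limma adjusted p = 0.200 over all probes). In the fit of every probe 23.4% passed, and among the 13 clock probes tested 1 did, that of Per2.

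**Figure D2:**
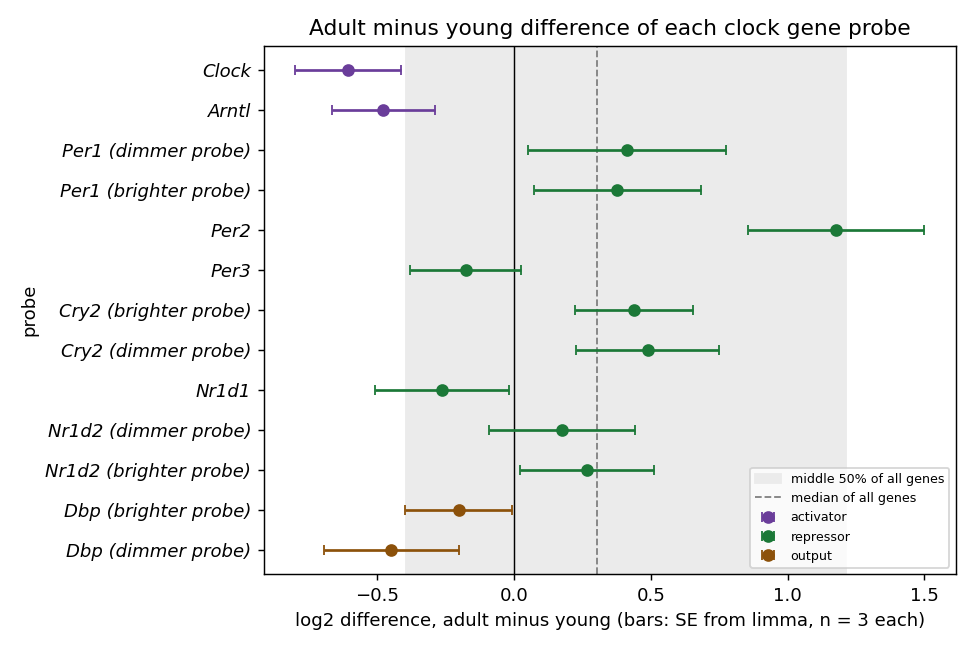
Log2 difference between adult and young (x axis) for each of the 13 detected clock probes (y axis), with bars of 1 SE from the limma fit over all probes, n = 3 arrays each. The dashed line is the median of all genes at 0.31 and the grey band runs between their lower and upper quartiles, from -0.39 to 1.21. Clock at -0.61, Arntl at -0.48 and the dimmer Dbp probe at -0.45 lie below the band, and Per2 at 1.18 lies near its upper edge.

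For the arms of the loop, each gene was set as a deviation from its own mean over the 6 arrays, and the deviations were averaged over the 2 activators and the 6 detected repressors. The activator arm stood at 0.25, 0.22 and 0.34 in young replicates 1, 2 and 3 and at -0.41, -0.23 and -0.17 in adult replicates 1, 2 and 3. The repressor arm stood at -0.03, -0.24 and -0.18 in young and at 0.32, 0.07 and 0.06 in adult replicates 1, 2 and 3. The arms thus lay on opposite sides of 0 on all 6 arrays, with a difference between adult and young of -0.54 for the activators and 0.30 for the repressors. The median difference of all genes was 0.31, so at this scaling the repressor arm stood level with the array as a whole and the activator arm below it. With quantile normalization the repressor arm stood at 0.46 beside a median of -0.06 for all genes, and with cyclic loess at 0.53 beside 0.04. With normexp and quantile normalization it stood at 0.46 beside -0.03, and with the series matrix at 0.47 beside -0.01. Its place relative to the array as a whole therefore depended on the scaling. These averages are descriptions, and no test was made of them.

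The repressor arm was not uniform. Without Per2, a comparison added after the values were seen, its difference was 0.13. Of its 6 detected members Per1, Per2, Cry2 and Nr1d2 had positive and Per3 and Nr1d1 negative differences. With median scaling Per2 alone was positive and the arm stood at -0.24, the same as the median of all genes there. That match adds nothing to the one above, since median scaling shifts all genes of an array by the same amount. The opposition was widest between Per2 and the activators. The deviation of Per2 minus that of Arntl was -0.98, -1.14 and -0.36 in young and 1.43, 0.23 and 0.81 in adult replicates 1, 2 and 3, so the ratio of these signals within an array shifted by 1.65 on the log2 scale. The shift of Per2 against Clock was 1.78 and that of Cry2 against Arntl 0.92. In these pairs the groups could not overlap, since every adult array was higher for Per2 and Cry2 and lower for Clock and Arntl. Their separation therefore adds nothing to that of the single genes. Clock and Arntl shifted against each other by 0.13, with overlapping groups. A shift of this kind within an array shows unequal change and does not depend on a constant scaling of the array.

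**Figure D3:**
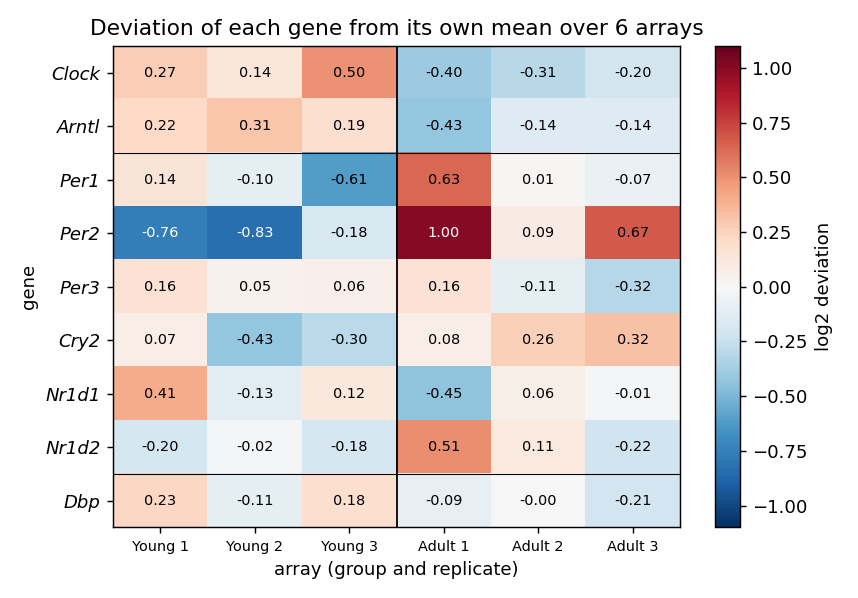
Deviation of each clock gene (rows) from its own mean over the 6 arrays (columns, 3 young and 3 adult), in log2 units, with red above and blue below the mean. Clock and Arntl are red on all young and blue on all adult arrays and Per2 the reverse, while the other rows are mixed. Adult replicate 1 holds the largest single deviation, 1.0 for Per2.

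Adult replicate 1 was the most extreme array for these genes. It held the highest level of 4 of the 9 genes (Per1, Per2, Per3 and Nr1d2) and the lowest of 3 (Clock, Arntl and Nr1d1). The shares of all genes highest or lowest on that array were not counted, so this may not be particular to clock genes. Without adult replicate 1 the activator difference was -0.47 and the repressor difference 0.22. Replicates 2 and 3 of the adult group kept the sign of the group for Clock, Arntl, Per2 and Cry2 on each array, relative to each gene's mean.

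The wider list held 30 genes that act beside the core loop, 29 of which were tested, Ciart being the exception. Of the 29, 1 was higher in adult, 2 were lower and 26 did not pass, where 20.1% of all genes were higher and 8.45% lower. The share lower was thus near that of all genes. The median difference of the list was -0.11 beside 0.31 for all genes. Rora and Rorb, nuclear receptors that activate Arntl through the sites REV-ERB proteins also bind, did not pass, at -0.18 ± 0.19 SE and 0.97 ± 0.29 SE (limma adjusted p = 0.468 and 0.0507).

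The lower genes were Cipc, a repressor that binds CLOCK, and Csnk1e, a kinase that marks PER proteins for decay. Cipc stood at -1.32, -1.02 and -1.28 in young and at -2.18, -1.77 and -2.38 in adult replicates 1, 2 and 3. It was 1.87-fold lower in adult (limma adjusted p = 0.0373), and its other probe differed by -0.59 ± 0.37 SE. Csnk1e was at 3.79, 3.72 and 3.98 in young and at 3.28, 3.27 and 3.02 in adult replicates 1, 2 and 3, which is 1.56-fold lower (limma adjusted p = 0.0486). Its other probes differed by 0.02 ± 0.31 SE and -0.42 ± 0.34 SE, so the result for Csnk1e depends on the probe, and it passed under 1 of the 6 other scalings. With any 1 array left out, 0 or 1 gene of the wider list was higher and 0 were lower, and with the slide row as a block the adjusted p was 0.0681 for Cipc and 0.0818 for Csnk1e (limma).

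The remaining partners did not pass. Npas2, which can replace CLOCK in the activating pair, differed by -0.47 ± 0.27 SE, the sign of Clock and Arntl, and Arntl2, a close relative of Arntl, by 0.08 ± 0.17 SE, with its other probes at 0.01 ± 0.34 SE and -0.76 ± 0.45 SE. Nfil3, which competes with DBP for D-boxes, stood at 1.13, 1.39 and 1.25 in young and at 3.29, 2.21 and 1.88 in adult replicates 1, 2 and 3. The adult arrays were all higher but far apart, and the difference of 1.20 ± 0.38 SE missed the threshold (limma adjusted p = 0.0595). The relatives of Dbp differed by -0.06 ± 0.19 SE (Tef) and 0.61 ± 0.25 SE (Hlf), and the E-box repressors by 0.54 ± 0.38 SE (Bhlhe40) and 0.63 ± 0.25 SE (Bhlhe41), whose other probe gave 0.02 ± 0.29 SE. Ncor1 and Hdac3, the co-repressor and deacetylase through which REV-ERB proteins act, differed by -0.60 ± 0.22 SE and -0.63 ± 0.26 SE (limma adjusted p = 0.0836 and 0.103), and the other probes of Ncor1 by -0.40 ± 0.29 SE and 0.12 ± 0.28 SE. The output genes Nampt and Wee1 differed by 0.06 ± 0.27 SE and 0.15 ± 0.32 SE.

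Per1 and Per2 can also be switched on outside the loop, by stress and growth signals and by glucocorticoids, so genes of these responses are given beside them. Of 8 immediate early genes, Fos, Jun and Egr1 among them, 1 was higher in adult and 7 did not pass, where 20.1% of all genes were higher. Their median difference was 0.74, beside 0.31 for all genes. All 8 differences were positive, against 59.4% of all genes, although those of Fosb and Ier2 turned negative with median scaling. In 7 every adult array exceeded every young one, which held for 34.0% of all genes. The gene that passed was Atf3, at 2.11, 2.11 and 2.10 in young and 3.57, 2.96 and 2.85 in adult replicates 1, 2 and 3 (limma adjusted p = 0.0332). With any 1 array left out it did not pass (limma adjusted p between 0.0611 and 0.0797), nor with median scaling (0.48, limma adjusted p = 0.195). Adult replicate 1, the highest array for Per1 and Per2, was also the highest for 8 of the 8 immediate early genes. It was the highest too for 5 of the 7 glucocorticoid genes below and for 13 of the 29 genes of the wider clock list. The share of all genes highest on that array was not counted.

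Of 7 genes that respond to glucocorticoids, 2 were higher and 5 did not pass, a share near the 20.1% of all genes for so short a list, with a median of 0.55 beside 0.31. The higher genes were Zbtb16, a zinc finger repressor (2.55-fold, limma adjusted p = 0.0490), and the metallothionein Mt1 (2.90-fold, limma adjusted p = 0.0432), while Fkbp5 differed by 0.30 ± 0.26 SE and Tsc22d3 by 0.55 ± 0.31 SE. With any 1 array left out neither passed, and with median scaling the adjusted p was 0.112 for Zbtb16 and 0.116 for Mt1 (limma). Zbtb16 also missed the threshold with quantile normalization, cyclic loess, no filter, array weights and the slide row as a block. The part of either response in the difference of Per2 was not tested.

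Markers of cell types were counted in the same fit, where 20.1% of all genes were higher and 8.45% lower in adult. The marker lists are short, so their shares are imprecise, and some of their genes encode proteins used in the sort. Of the 8 satellite cell markers 4 were lower in adult, and their summed level (log2, relative to the 75th percentile) ran from 5.70 to 5.98 in young and from 5.0 to 5.67 in adult. Of 3 adipocyte markers 2 were higher, with sums from -2.64 to -1.43 in young and from 0.14 to 0.70 in adult. Of 4 mural cell markers 3 were higher (5.59 to 5.99 in young, 5.78 to 5.95 in adult), of 5 leukocyte markers 2 were higher (7.72 to 8.70 and 8.52 to 8.61), and of 4 myofibre markers 1 was lower (2.33 to 3.14 and 1.91 to 2.37). None of 4 endothelial markers passed (1.89 to 2.5 and 1.30 to 2.17), nor any of 3 tested fibro-adipogenic ones (2.95 to 3.45 and 1.82 to 3.12), and Pdgfra, which defines the latter cells, was not well above background on any array. The part of these cells in the clock differences was not tested, and in such sorted populations fewer cells of a type and less RNA per cell cannot be told apart.

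The scaling of the arrays decided several calls. The median difference of all genes was 0.31 here, and between -0.24 and 0.45 under the 6 other scalings tried. Relative to that median, Clock lay between -1.01 and -0.77, Arntl between -0.86 and -0.61, and Per2 between 0.87 and 1.51 under all 7 scalings. The main, detected-probe and median scalings each shift an array by a constant. Values relative to the median are therefore the same under these by construction, and they do not count as separate checks. Clock and Arntl each passed the threshold as lower in adult under 5 of the 6 other scalings, and Per2 passed as higher under 5 of the 6, the exception being median scaling (0.64, limma adjusted p = 0.182). Cry2 passed as higher under 2 of the 6 and turned to -0.10 with median scaling, where Per1 (-0.16) and Nr1d2 (-0.27) also changed sign. Those 2 were normexp with quantile normalization and the series matrix, which are nearly the same processing. The 5 scalings counted for Clock, for Arntl and for Per2 each include both. Dbp lay between -0.74 and 0.07, and was called lower with median scaling alone. The gap between the arms, repressors minus activators, was 0.84 here and lay between 0.69 and 1.45 over these scalings and the other alternatives that kept both arms whole. Several of these could not change the gap, which stayed at 0.84. They were the median and detected-probe scalings, the filters, trend with robust moderation and the replicate block. With Per2 taken out of the repressors the gap was 0.67.

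**Figure D4:**
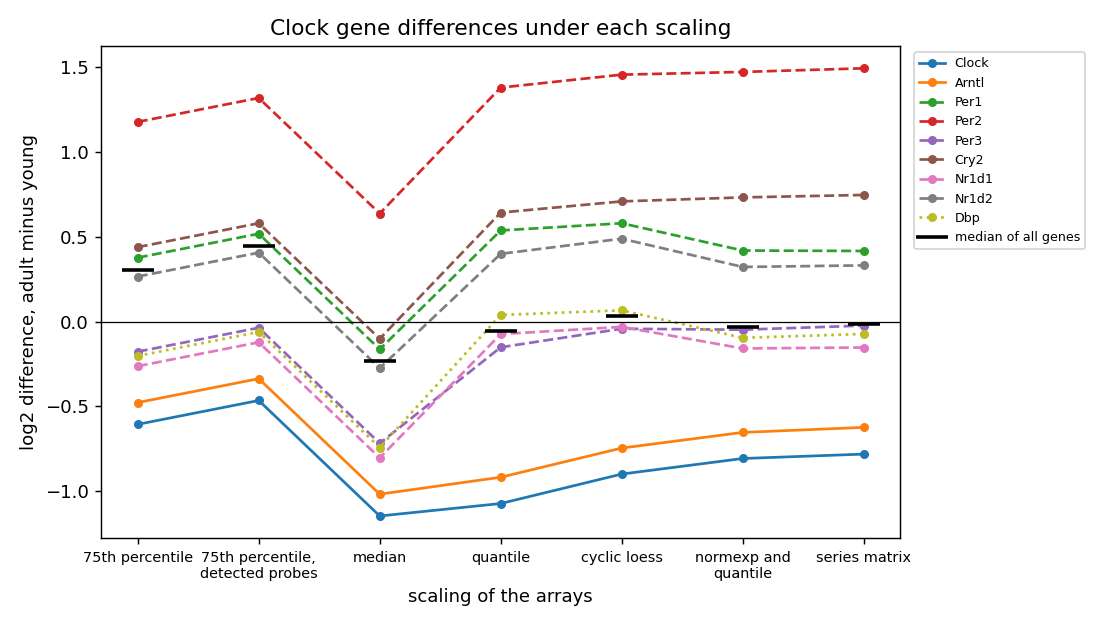
Log2 difference between adult and young (y axis) for the 9 detected clock genes under 7 scalings of the arrays (x axis), n = 3 arrays each. Lines join the values of 1 gene, solid for activators, dashed for repressors and dotted for Dbp, and black bars mark the median of all genes. Clock and Arntl lie below and Per2 above that median under all 7 scalings.

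The genes with the profile most like that of Arntl, by the root mean square difference of centred levels over the 6 arrays, were Apba3 (0.0357), Gpsm1 (0.0395) and D10Wsu102e (0.0406), where the median over 13915 named genes was 0.401. For Dbp they were Stx16 (0.0297), L3mbtl3 (0.0390) and the pseudogene Rpl21-ps5 (0.0471), with a median of 0.386. The core clock genes were left out of this search beforehand, so it could not return them. None of the 6 belongs to the wider clock list. That list supplied at most 29 of the 13915 genes searched, so its absence says little.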

How the data were processed

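Cy3-labelled cDNA, amplified by WTA per the labels' protocols, was hybridised to single-colour Agilent arrays on 1 slide. Per the file headers, the software was Feature Extraction 10.7.3.1, and the deposited intensity values are a processed signal (background-subtracted and detrended, with surrogates for signals near background, so differences of dim probes are imprecise), a mean signal and a local background, none scaled between arrays. The deposited series matrix holds log2 values (median 7.56 in each column). How the authors made it is not stated, but it lies within 0.000106 of scanner values after normexp (offset 50) and quantile normalization.

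Control and outlier spots were dropped and repeated spots averaged. A probe needed a well-above-background flag on 3 or more arrays. The probe of highest mean represented its gene, and 28699 of 55681 probes took their symbol from the RefSeq gene table (GRCm38.p6), the others from the files. Clock members were taken by the files' names, and whether a probe lies in an exon, intron or UTR was not analysed here. The groups were compared by limma 3.58.1 (R 4.3.3) with Benjamini-Hochberg adjustment over genes or, for single probes, over probes. Positive differences are higher in adult. The fit was tested on simulated data. The number of arrays, 3 in each group, limits the precision. Where replicates did not come from separate mice, p-values measure only the spread between these samples.

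Members, lists and tests were chosen with earlier results of these data known. Every member and every list gene past the threshold is named, except 1 of the wider list that is not reported here. Other list genes named were chosen after their values were seen. Alternatives were other scalings, filters, probe summaries, moderation, array weights, blocks and arrays left out.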

Additional observations from a re-analysis of the deposited data

How the results depend on the processing

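Over the 9 detected clock genes and 19 alternatives, 141 values kept their direction and side of the threshold, 15 passed anew, 10 no longer passed and 5 changed sign. The main counts were 9144 genes, 6434 higher and 2710 lower, with 1 clock gene higher and 0 lower, and 1 higher and 2 lower in the wider list. The causes of the shifts below were not tested.

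Median scaling gave 3451 genes higher and 8813 lower, 0 clock genes higher and 3 lower, 7 of the wider list lower, and arm differences of -1.08 (activators) and -0.24 (repressors). There Per1 was -0.16, Cry2 -0.10 and Nr1d2 -0.27, with their dimmer probes at -0.13, -0.051 and -0.36. Quantile normalization gave 5636 genes, 2880 higher, with 2 clock genes and 1 of the wider list lower, arms at -0.995 and 0.46, and Dbp at 0.039. The 75th percentile of probes detected on all arrays gave 1785 lower, 3 and 1 of the wider list higher and lower, and activators at -0.40. Cyclic loess gave 5278 genes, 3132 higher, 2 clock genes lower, 2 and 1 of the wider list higher and lower, arms at -0.82 and 0.53, and Dbp at 0.067. Normexp with quantile normalization gave 4282 higher and 4344 lower, 2 clock genes each way, 4 of the wider list higher, and arms at -0.73 and 0.46. The series matrix gave 4093 lower, 2 clock genes each way, 4 of the wider list higher, and arms at -0.70 and 0.47. The dimmer Nr1d2 probe was -0.011, -0.044 and -0.013 under quantile normalization, normexp and the series matrix, and from -0.068 (without adult replicate 1) to 0.35 (without adult replicate 2) with 1 array left out.

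Without a filter 1 of the wider list was lower. With probes detected on all arrays 1 clock gene was lower and 3 of the wider list were higher. The mean of a gene's probes gave 2 and 1 of the wider list higher and lower, and trend with robust moderation 3 and 4, with 4433 genes lower. Array weights gave 0 clock genes higher and 1 lower, and 2 of the wider list higher. The slide row as a block gave 5960 genes, 1200 lower, 0 clock genes higher, and 2 and 0 of the wider list higher and lower. The repressor arm without Per2, added after seeing the data, was 0.13.

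For each gene the group mean was subtracted, and these deviations were correlated over genes between same-numbered young and adult replicates. The correlations were -0.0024, -0.094 and -0.14, which gave no sign of pairing. The labels do not say whether the numbers pair the samples. A fit with the replicate block left 0 genes past the threshold (limma), so 0 were higher and 0 lower, with 0 in either clock list, while 12728 genes and 2 clock genes had an unadjusted p under 0.05. Leaving out 1 array gave 295 to 7686 genes (274 to 6425 higher, 21 to 1261 lower), fewest without adult replicate 3. It gave 0 clock genes either way, 0 to 1 higher and 0 lower in the wider list, activators from -0.59 to -0.47 and repressors from 0.22 to 0.36. A slide block was not run, since there is 1 slide. Signal over background limits Cry1 to a bound.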
